A study of Mus musculus with 6 samples.

Results

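Cx3cr1 encodes the receptor for the chemokine fractalkine, and the cassette for the inducible Cre recombinase of the study's knockout mice sits in its locus. The 5 genes described here are Cx3cr1 and the genes of the authors' list whose annotated start lies within 10 Mb of its start on chromosome 9, which are Rps27rt, Xirp1, Myrip and Trank1. They are 5 of the 466 genes that the authors listed as different between knockout and control microglia. The members were thus selected on position and on measured values of this comparison. Every listed gene had an absolute log2 fold change over 1 and an unadjusted p under 0.05 in the authors' deposited table. The difference between the groups therefore chose the members, and it is described below without a test of them.

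The cells were microglia, brain-resident macrophages, taken from adult male mice on a C57BL/6N background with the 5×FAD transgenes, which model amyloid deposition in Alzheimer's disease. Their polyadenylated RNA was sequenced. The 3 knockout samples (Piezo1MGKO; FAD) came from mice with the Cx3cr1CreER-EYFP allele and 2 floxed copies of Piezo1, the gene of a mechanically gated cation channel, and the 3 control samples (Piezo1fl/fl; FAD) from floxed littermates for which no Cre allele is named. All mice received 20 mg/kg tamoxifen on 4 days from 4.5 weeks of age, and all carried the 5×FAD transgenes and the floxed Piezo1 alleles. The labels give neither the number of Cx3cr1CreER-EYFP alleles per mouse nor the number of mice per sample, and the samples are called biological repetitions. The modified Cx3cr1 locus is named for the knockout mice only. If the controls lacked it, as their genotype reads, an effect of that allele and an effect of Piezo1 loss cannot be told apart for any member.

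Cx3cr1 is a G protein-coupled receptor that is abundant on microglia, and its ligand, encoded by Cx3cl1, is made by neurons and can be shed by the metalloproteinases encoded by Adam10 and Adam17. The abundance of the receptor gene in microglia is why its locus is widely used to drive reporters and recombinases in these cells. A retrogene such as Rps27rt arises when a spliced messenger RNA is copied into the genome, so it lacks the introns of its parent gene, here Rps27, which encodes a protein of the small ribosomal subunit.

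All 5 members are annotated as protein coding on chromosome 9 of GRCm38. For distances between genes, the start of a gene is its lower coordinate, which on the minus strand is its 3′ end and not its transcription start. Cx3cr1 (ENSMUSG00000052336) spans positions 119901616 to 120069879 on the minus strand. Rps27rt (ENSMUSG00000050621) is a single exon at 114982366 to 114982739 on the minus strand, 4.92 Mb from the Cx3cr1 start, inside the span of Osbpl10 on the opposite strand and without a base in its exons. Xirp1 (ENSMUSG00000079243) lies at 120013755 to 120023598 on the minus strand, 0.112 Mb from the Cx3cr1 start. Myrip (ENSMUSG00000041794) lies at 120301513 to 120474841 on the plus strand, 0.40 Mb away, and Trank1 (ENSMUSG00000062296) at 111311739 to 111395775 on the plus strand, 8.59 Mb away.

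Rps27rt and its parent are shown first, because their sequences bear on what a read count of Rps27rt can mean. The coding sequences of Rps27rt and of the Rps27 transcript Rps27-201, which has 4 exons on chromosome 3, had the same length of 255 bases and differed at 0 of them. Start and stop codons are in capitals in these sequences, read from the GENCODE M21 transcripts:
Rps27rt coding sequence: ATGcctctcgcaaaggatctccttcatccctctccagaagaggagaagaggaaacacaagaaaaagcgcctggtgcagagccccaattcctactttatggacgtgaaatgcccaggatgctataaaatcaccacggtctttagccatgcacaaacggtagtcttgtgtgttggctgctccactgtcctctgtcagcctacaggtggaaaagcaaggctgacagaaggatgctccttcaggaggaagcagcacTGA
Rps27 coding sequence: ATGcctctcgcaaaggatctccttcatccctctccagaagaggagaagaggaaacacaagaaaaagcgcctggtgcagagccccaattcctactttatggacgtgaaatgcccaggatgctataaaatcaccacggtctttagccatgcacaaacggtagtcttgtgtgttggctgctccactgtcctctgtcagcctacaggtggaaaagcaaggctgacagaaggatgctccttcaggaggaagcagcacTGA

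The identity ran beyond the coding part. The first 341 of the 374 bases of the Rps27rt transcript occurred without a difference in an annotated Rps27 transcript, and 33 bases at the 3′ end lay outside this run. Of the 225 windows of 150 bases in the Rps27rt transcript, the length of one read, 196 (87.1%) occurred in a transcript of another gene, which was Rps27 or the processed pseudogene Gm17241. For Cx3cr1, Xirp1, Myrip and Trank1 the same count was 0, of 4353, 5301, 5821 and 13449 distinct windows in Cx3cr1, Myrip, Xirp1 and Trank1. These windows stand for single reads, whereas the reads came in pairs, and the share of pairs that fit both genes was not counted. How reads that fit both Rps27rt and Rps27 were assigned is stated in no source used here, so the level of Rps27rt is uncertain. Rps27 is not among the listed genes and was not analysed here. The related gene Rps27l, also on chromosome 9, differed from Rps27rt at 61 of 255 coding bases.

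The windows around the transcription starts show where the copy begins. They run from 250 bases before to 50 bases after the start and come from RefSeq on GRCm38.p6. Of the 5 members 4 matched an entry, and the member without one was Xirp1. In the pair of Rps27 windows the longest run they share is in capitals, and in the Cx3cr1 window every CG dinucleotide (the same on both strands) is in capitals:
Rps27rt, chr9:114982690-114982989, minus strand: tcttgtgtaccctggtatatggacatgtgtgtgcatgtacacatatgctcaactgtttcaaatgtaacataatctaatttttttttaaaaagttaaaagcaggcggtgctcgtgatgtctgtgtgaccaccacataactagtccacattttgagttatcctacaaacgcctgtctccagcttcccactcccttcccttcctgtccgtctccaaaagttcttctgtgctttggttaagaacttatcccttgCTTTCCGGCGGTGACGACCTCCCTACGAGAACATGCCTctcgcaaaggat
Rps27, chr3:90213599-90213898, minus strand: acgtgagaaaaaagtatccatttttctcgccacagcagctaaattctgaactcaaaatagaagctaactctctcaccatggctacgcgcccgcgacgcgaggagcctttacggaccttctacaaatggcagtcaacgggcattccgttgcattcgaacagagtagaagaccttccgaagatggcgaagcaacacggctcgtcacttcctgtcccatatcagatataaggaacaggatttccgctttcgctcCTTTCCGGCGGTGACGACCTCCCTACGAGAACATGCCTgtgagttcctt
Cx3cr1, chr9:120068247-120068546, minus strand: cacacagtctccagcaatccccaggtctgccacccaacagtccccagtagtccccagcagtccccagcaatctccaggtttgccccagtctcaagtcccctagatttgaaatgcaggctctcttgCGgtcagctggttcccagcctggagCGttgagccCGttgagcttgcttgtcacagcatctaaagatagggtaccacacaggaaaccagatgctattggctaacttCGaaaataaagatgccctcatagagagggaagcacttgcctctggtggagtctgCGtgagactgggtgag

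The run shared by Rps27rt and Rps27 was 38 bases long. It began at base 251 of the Rps27rt window, the first base of the annotated transcript, and ended 3 bases past the start codon. With both strands searched, 3 of the 32851 promoter windows held it, the third being that of Rab13, which overlaps the Rps27 window. The Cx3cr1 window held 5 CG dinucleotides and had a GC content of 54.3%, against a median of 7 and 52.7% over all windows. The Rps27rt window held 9 at a GC content of 44.3%. The windows of Myrip and Trank1 held 48 and 40 CG dinucleotides at a GC content of 81.7% and 71.7%, and 1.22% and 3.91% of all windows held at least as many. At least one CG dinucleotide was present in 94.6% of all windows.

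Cx3cr1 stood at 58569, 61450 and 79363 normalised reads in the control samples and at 32081, 27906 and 35698 in the knockout samples. A normalised read is a read count divided by a factor for the sample, and values per sample are given here and below in the order of replicates 1, 2 and 3. All 3 knockout samples lay below all 3 controls, and the lowest control stood 1.64-fold above the highest knockout. The mean was 31895 ± 3899 for the knockout group (SD, n = 3) against 66461 ± 11266 for the control group (SD, n = 3), so the knockout held 48.0% of the control level. Across the 9 pairs of a control and a knockout sample the fold ranged from 1.64 to 2.84. The difference of mean log2(value + 1) was -1.05, with within-group SDs of 0.18 in the knockout and 0.24 in controls. In the authors' deposited table the log2 fold change was -1.06, with an adjusted p of 1.6e-05. Cx3cr1 had the highest mean of all 466 listed genes. In bulk RNA of isolated cells, fewer cells of a type and less RNA per cell cannot be told apart.

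The 4505 exonic bases of Cx3cr1 fall in 3 annotated transcripts, and the start of the listed span comes from one of them only. That transcript ends in an exon of 12 bases at 119901616 to 119901627, far from the other exons, which all lie between 120048683 and 120069879. Of 9 other genes that overlap the span, the antisense gene Gm33858 shares 78 exonic bases with Cx3cr1, and the other 8, Xirp1 among them, share none. No source used here says whether counting was strand-specific, so reads in those 78 bases cannot be assigned to one of the genes. The deposited values are per gene and do not show whether reads came from the exons on either side of the inserted cassette.

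**Figure D1:**
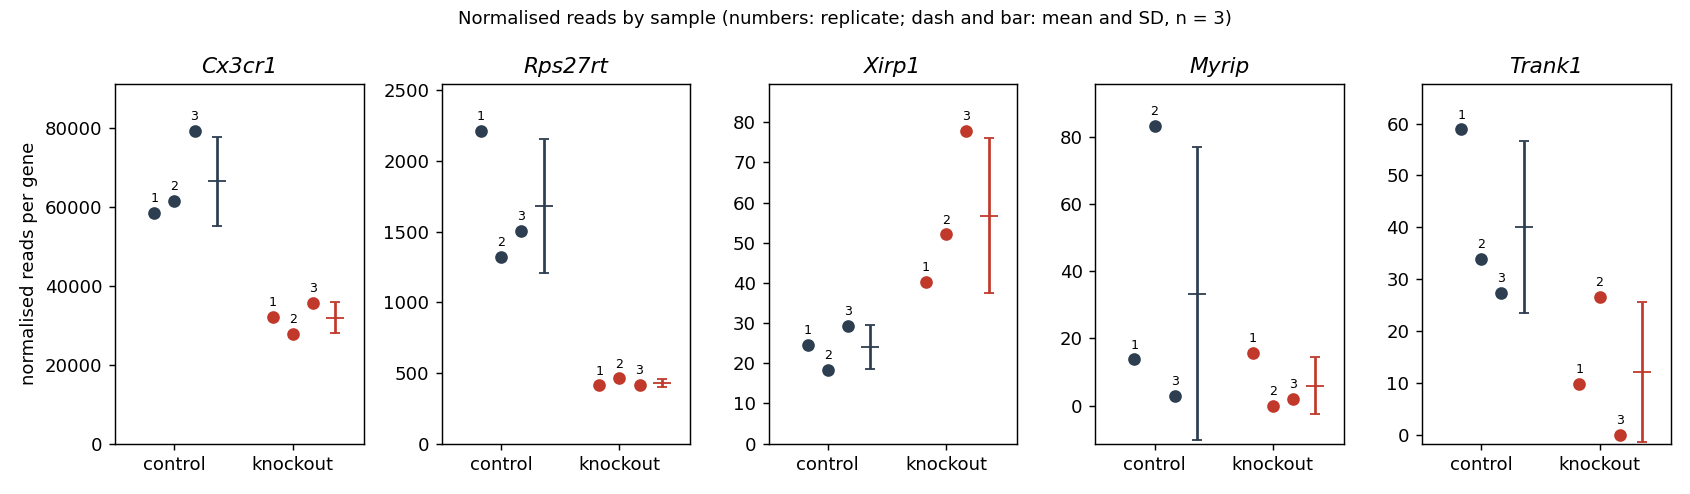
Normalised reads per gene (vertical axes, one scale per gene) in the 3 control and 3 knockout samples. Points are samples with their replicate numbers, and dashes with bars are means ± SD. Cx3cr1 and Rps27rt are lower in all 3 knockout samples than in any control, Xirp1 is higher, and Myrip overlaps between the groups. For Trank1, knockout 2 (26.6) and control 3 (27.4) nearly meet.

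Rps27rt stood at 2214, 1318 and 1503 normalised reads in the control samples and at 412, 462 and 413 in the knockout samples. The groups were well apart, with the lowest control 2.86-fold above the highest knockout. The mean was 429 ± 28.4 for the knockout group (SD, n = 3) against 1678 ± 473 for the control group (SD, n = 3), so the knockout held 25.5% of the control level. The knockout samples were close to each other, with a coefficient of variation of 6.63% against 28.2% in controls. The difference of mean log2(value + 1) was -1.93, and the authors' deposited table gave a log2 fold change of -1.97 and an adjusted p of 4.4e-15. These values carry the uncertainty of reads shared with Rps27 described above.

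Xirp1 encodes Xin, an actin-binding protein of the intercalated discs and of developing and regenerating muscle. It stood at 24.5, 18.4 and 29.4 normalised reads in the control samples and at 40.3, 52.1 and 77.9 in the knockout samples. It was the one member that was higher in the knockout, and its groups did not overlap, with the lowest knockout 1.37-fold above the highest control. The mean was 56.8 ± 19.2 for the knockout group (SD, n = 3) against 24.1 ± 5.48 for the control group (SD, n = 3), a 2.35-fold difference. The authors' deposited table gave a log2 fold change of 1.24 and an adjusted p of 0.909. Xirp1 lies inside the long intron that precedes the 12-base exon of Cx3cr1, on the same strand, and 0 of its 5839 exonic bases are shared with exons of another gene. Reads from unspliced or read-through Cx3cr1 RNA over the Xirp1 exons cannot be told apart from Xirp1 reads in values per gene.

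Myrip encodes a protein that links the small GTPase Rab27 on granules and melanosomes to unconventional myosins. It stood at 13.7, 83.4 and 2.94 normalised reads in the control samples and at 15.7, 0 and 2.02 in the knockout samples. The groups overlapped: knockout 1 stood above controls 1 and 3, and the high control mean came from control 2. The mean was 5.92 ± 8.56 for the knockout group (SD, n = 3) against 33.4 ± 43.7 for the control group (SD, n = 3). The 5.64-fold difference of these means was 1.41-fold without control 2, 3.76-fold without knockout 2 and 33.0-fold without knockout 1. The value of 0 in knockout 2 allows up to 3 reads in that library (3.06 normalised reads), for counting error only. The authors' deposited table gave a log2 fold change of -2.49 and an adjusted p of 0.9998.

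Control 2 was also the sample with the highest levels of choroid plexus and ependymal markers, genes of the epithelia that line the ventricles. Of 10 such markers 7 were listed, where 1.93% of annotated protein-coding genes were, and all 7 were highest in control 2. They were Ttr, Kcnj13, Aqp1, Otx2, Cldn2, Foxj1 and 1500015O10Rik, and none of the 7 was at 0 in any sample. Their normalised reads summed to 3487, 19196 and 362 per control sample and to 2034, 886 and 590 per knockout sample. Ttr made up most of each sum, at 3369, 18571 and 265 in the control samples and 1955, 847 and 563 in the knockout samples. The order of the sums is thus that of Ttr and says little about the other markers. How many of all listed genes were highest in control 2 was not counted. The part of choroid plexus and ependymal cells in the Myrip difference was not tested.

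Trank1, named for its tetratricopeptide and ankyrin repeats, stood at 58.9, 33.9 and 27.4 normalised reads in the control samples and at 9.83, 26.6 and 0 in the knockout samples. The groups did not overlap, but knockout 2 and control 3 were 1.03-fold apart, at 26 and 28 whole reads. The mean was 12.1 ± 13.4 for the knockout group (SD, n = 3) against 40.1 ± 16.6 for the control group (SD, n = 3), a 3.30-fold difference. It was 8.15-fold without knockout 2 and 2.20-fold without knockout 3, whose 0 allows up to 3 reads (3.04 normalised reads, counting error only). The authors' deposited table gave a log2 fold change of -1.73 and an adjusted p of 0.9998. Of 11 neuron markers 7 were listed, where 1.93% of annotated protein-coding genes were. All 7 were lower, as were 88.0% of all listed genes. Their normalised reads summed to 75.5, 177 and 796 per control sample, with 542 of the last from Thy1, and to 23.6, 68.4 and 12.1 per knockout sample. Within the knockout these sums and Trank1 shared their order, whereas within the controls the orders were opposite, and the part of neuronal RNA in the Trank1 difference was not tested. Of these markers, Syt1, Grin1 and Slc17a7 were at 0 in knockout 3, as Trank1 was, and each 0 allows up to 3 reads there. These 3 genes were also low in knockouts 1 and 2, at 1.97 and 6.13, 0.983 and 2.04, and 0.983 and 7.15 normalised reads. The other listed neuron markers, Snap25, Tubb3, Thy1 and Syn1, were detected in knockout 3, at 1.01, 2.02, 1.01 and 8.09 normalised reads.

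**Figure D2:**
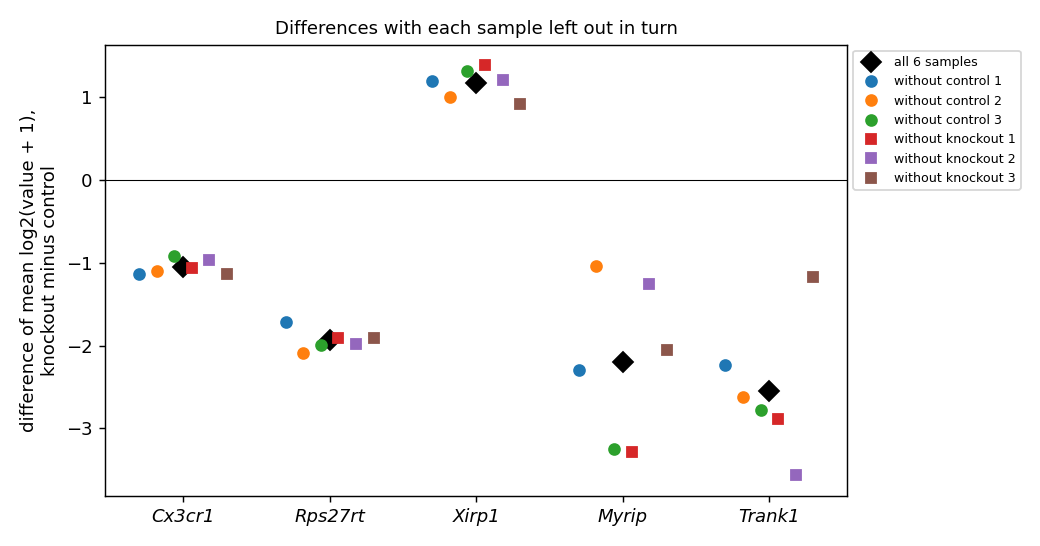
Difference of mean log2(value + 1), knockout minus control (vertical axis), for each gene with all 6 samples (diamond) and with each sample left out in turn (circles, a control left out; squares, a knockout left out). Cx3cr1 stays between -1.14 and -0.92 and Rps27rt between -2.09 and -1.71, whereas Myrip ranges from -3.29 to -1.04 and Trank1 from -3.57 to -1.18.

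Of the 5 members 4 were lower in the knockout, as were 88.0% of the listed genes in the authors' deposited table. There, 2 of the 5 members, Cx3cr1 and Rps27rt, had an adjusted p under 0.05, where 14 of the 466 listed genes (3.00%) did, all lower. Of the members, 3 had groups that did not overlap with the knockout lower (Cx3cr1, Rps27rt and Trank1), as 45.3% of listed genes had. Xirp1 was among the 10.1% whose groups did not overlap with the knockout higher. The median of the authors' log2 fold changes over all listed genes was -2.77, a larger fall than that of any member. All of these are measures that chose the members or come from the same contrast, and nothing about the members is drawn from them. A fit of all 466 listed genes with limma called 0 of them at an adjusted p of 0.05, with 245 at an unadjusted p under 0.05. edgeR called 0 (261 at an unadjusted p under 0.05) and DESeq2 48, Rps27rt among them and Cx3cr1 not. These fits saw only genes selected on this contrast, so their adjusted p are not error rates. Nor can they be compared with the authors' adjusted p, which correspond to 19107 genes. Without control 1 the limma count was 196 and without control 3 it was 36.

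Normalised reads per kilobase of gene length allow levels to be set side by side. In controls the order was Cx3cr1 at 14753 ± 2501, Rps27rt at 4488 ± 1265, Myrip at 6.02 ± 7.89, Xirp1 at 4.13 ± 0.938 and Trank1 at 3.05 ± 1.27 normalised reads per kilobase (SD, n = 3 each). In the knockout it was Cx3cr1 at 7080 ± 865, Rps27rt at 1146 ± 76.0, Xirp1 at 9.72 ± 3.29, Myrip at 1.07 ± 1.55 and Trank1 at 0.924 ± 1.02 (SD, n = 3 each). Cx3cr1 and Rps27rt stood apart from the rest by far more than the spread in both groups. Myrip, Xirp1 and Trank1 did not differ beyond their spread in controls, nor did Myrip and Trank1 in the knockout. The reads of Xirp1, Myrip and Trank1 are therefore few per kilobase beside those of Cx3cr1 and Rps27rt.

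Proximity on the chromosome brought these genes together, and the number of listed genes within 10 Mb equalled the median around other listed genes. Within 10 Mb of the Cx3cr1 start, 5 of 361 annotated genes were listed, or 5 of 151 protein-coding genes (3.31%), against 424 of 21951 protein-coding genes (1.93%) in the annotation. Around the other 465 listed genes, windows reaching 10 Mb on each side held a median of 5 listed genes. These counts included the gene itself, and 255 of the windows held at least 5. No window was corrected for the ends of chromosomes, so windows can cover different lengths, and the counts are not per Mb. Trank1, at 8.59 Mb, was the member nearest the edge of the window. The nearest listed gene outside it was Tmem89, which encodes a transmembrane protein, at 10.99 Mb. Tmem89 had 8.85, 3.06 and 1.01 normalised reads in knockouts 1, 2 and 3 and 0 in every control. Each 0 allows up to 3 reads (2.91 to 2.94 normalised reads in the controls, counting error only). Knockout 3 lay within that allowance, so these levels are near the floor. Beyond Myrip, toward the end of the chromosome, 0 genes were listed.

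The other 27 listed genes of chromosome 9 were 25 lower and 2 higher genes, and 11 of them had groups that did not overlap. Over all listed genes 88.0% were lower. Groups did not overlap in 45.3% with the knockout lower and in 10.1% with it higher. Of the 27 genes, 0 had an adjusted p under 0.05 in the authors' deposited table, against 3.00% of all listed genes. The smallest, 0.0882, was that of Loxl1, a gene of elastic fibre crosslinking. The higher of the 2 group means had a median of 27.5 normalised reads over the 27 genes and reached 207 for Nedd4, a ubiquitin ligase gene. The levels of Xirp1, Myrip and Trank1 fall in this range, and those of Cx3cr1 and Rps27rt lie above it.

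**Figure D3:**
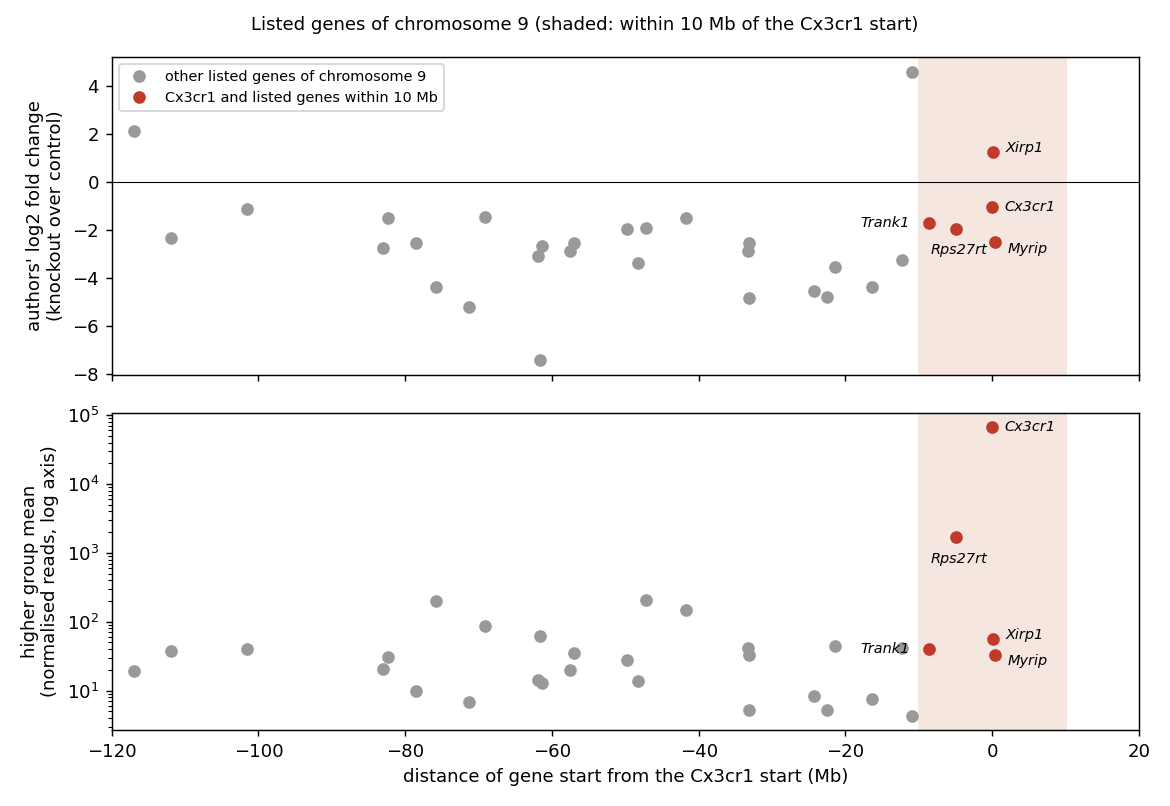
Listed genes of chromosome 9 by the distance of their start from the Cx3cr1 start in Mb. The upper panel gives the authors' log2 fold change of knockout over control, and the lower panel the higher of the 2 group means in normalised reads on a log axis. Red points are the 5 members, grey points the other 27 listed genes, and shading marks 10 Mb on each side. Cx3cr1 and Rps27rt have the highest levels, and no listed gene follows Myrip.

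Variation within the groups gives a view of the members that the difference between groups does not fix. After each group's mean was removed from log2(value + 1), the 5 genes most like Cx3cr1 over the 6 samples, among 235 listed genes with a mean of at least 10 normalised reads, were Acta2, Ccnd2, Ctsk, Gsn and Pde10a, with Pearson correlations from 0.92 to 0.95. They encode smooth muscle actin, cyclin D2, cathepsin K, gelsolin and a phosphodiesterase. The points share their libraries and are few, so the correlations are a description, and 3 of the 5 genes (Acta2, Gsn and Pde10a) were among the 6 genes that reached the 5th highest Spearman correlation, ties included. In each of them, as in Cx3cr1, control 3 is the highest control and knockout 3 the highest knockout. The member Xirp1 has this order too, so it is not particular to the 5 genes. How many of the 235 genes have it was not counted. Gsn, for example, stood at 225, 430 and 834 normalised reads in the control samples and at 218, 161 and 295 in the knockout samples. Pde10a was higher in the knockout, at 42.3, 35.7 and 70.8 in knockouts 1, 2 and 3 against 15.7, 16.5 and 25.4 in the controls.

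For the other members the same correlation with Cx3cr1 was 0.59 for Xirp1, -0.24 for Myrip, -0.45 for Rps27rt and -0.70 for Trank1, and its median over the 235 genes was 0.04. Rps27rt was highest in control 1, the control in which Cx3cr1 was lowest, and in knockout 2, the knockout in which Cx3cr1 was lowest.

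**Figure D4:**
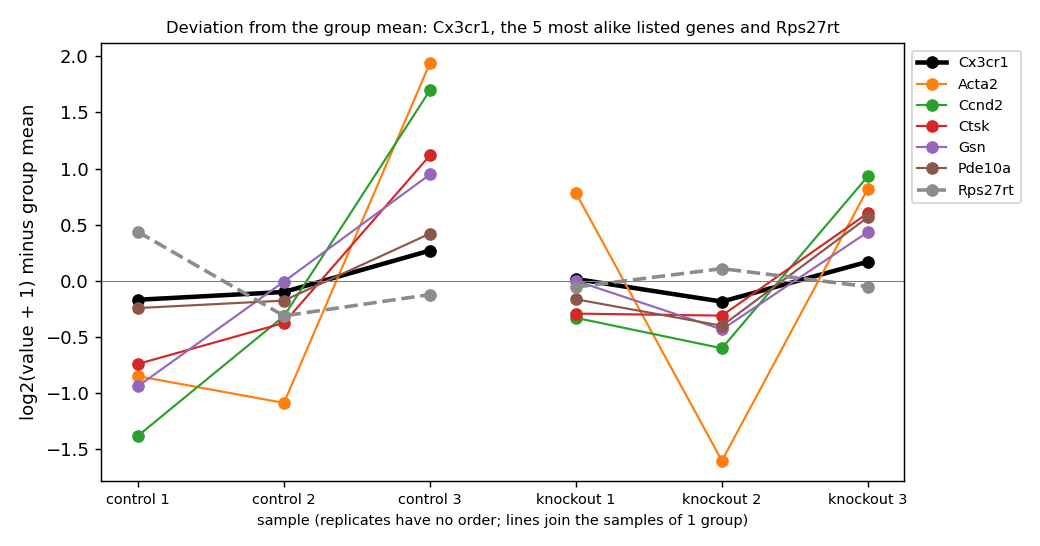
Deviation of log2(value + 1) from the group mean (vertical axis) in each sample, for Cx3cr1 (thick black line), the 5 listed genes most like it and Rps27rt (dashed). Lines join samples of one group only to guide the eye. Cx3cr1 and the 5 genes are highest in control 3 and knockout 3, and Rps27rt is not.

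Genes that work with the members, or mark the same cells, were listed at about the background rate. Leaving out the members, 2 of the 104 genes in 6 such lists were listed (1.92%), against 1.93% of annotated protein-coding genes. In the fractalkine pathway (17 genes) only Cx3cr1 was listed, and neither Cx3cl1, Adam10 and Adam17 nor the signalling genes Gnai2, Pik3cg and Syk were listed. It was likewise alone among 24 homeostatic microglia markers, so the level of P2ry12, Tmem119, Csf1r and the others was not analysed here. The cells are called microglia after the study's description, which these values could not check beyond Cx3cr1. Of 23 chemokine receptor genes, Cx3cr1 and Cxcr3, a receptor of activated lymphocytes, were listed. Cxcr3 stood at 22.6, 14.5 and 26.4 normalised reads in the control samples and at 3.93, 12.3 and 4.05 in the knockout samples. The groups of Cxcr3 did not overlap, and the authors' deposited table gave it an adjusted p of 0.9998. Absence from the list does not show that a gene was unchanged.

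Of 19 genes of the ribosomal protein S27 family and other small-subunit proteins, Rps27rt alone was listed. Myrip was the one listed gene of 15 for Rab27-dependent transport, a list that also holds Rab27a, Rab27b and Myo7a. Of 12 genes for Xin repeat proteins and their partners, Xirp1 was higher and the N-cadherin gene Cdh2 was lower. Cdh2 stood at 6.87, 7.76 and 23.5 normalised reads in the control samples and at 2.95, 1.02 and 0 in the knockout samples. Of 12 muscle markers 3 were listed, Acta2, Myl9 and Ryr2, all lower in the knockout, as were 88.0% of all listed genes. Their normalised reads summed to 34.3, 35.9 and 264 per control sample and to 25.6, 8.17 and 26.3 per knockout sample, and Myl9 and Ryr2 were at 0 in knockouts 1 and 3. The falls of Acta2 and Myl9 came mostly from control 3, at 189 and 66.5 normalised reads. The groups of Acta2 overlapped, with control 2 at 22.3 and knockouts 1 and 3 at 25.6 and 26.3. Ryr2 stood at 6.87, 11.6 and 8.81 in the control samples and at 3.06 in knockout 2. Piezo1 itself was not listed, so the level of the deleted gene was not analysed here and could not be used to check the groups.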

How the data were processed

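Poly(A) RNA of 3 knockout and 3 control samples was sequenced in read pairs (150 bases per read), per the labels' protocols. Per the submitters' processing notes, the build was GRCm38 and the tools included HISAT2, RSEM 1.2.30, cutadapt 1.11 and DESeq2 under R 3.6.1, with their roles unstated. The deposited signal values are the authors' normalised reads per gene. All of them (100% at a tolerance of 1e-06) were whole reads divided by one factor per sample, from 0.979 to 1.03. The authors deposited a log2 fold change, a p-value and its adjusted value per gene, and the adjustment corresponds to 19107 genes. Gene length is copied from the deposited table. The table holds 466 selected genes, so library depth is unknown. The labels call the samples biological repetitions but do not say that each came from separate mice, so any p measures only the spread between these samples. Recovered reads of replicates differed by more than counting error (chi-square per degree of freedom from 12.1 to 98.0). Members and lists were chosen with earlier results of these data known.

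Sample values were compared as log2(value + 1) without rescaling or a filter. limma 3.58.1 (R 4.3.3), with a mean-variance trend and Benjamini-Hochberg adjustment at 0.05, was fitted to all 466 genes. The recovered reads were also tested with edgeR 4.0.16 (quasi-likelihood) and DESeq2 1.42.0. The fits were tested on simulated data. Genes were matched to GENCODE M21 (GRCm38), where all 5 members had the coordinates of the deposited table. The text names the members, Piezo1, the 5 genes most like Cx3cr1, the nearest listed gene outside the window and listed genes of 6 lists around the members. Loxl1, Nedd4, Fosb, Hba-a1 and the markers of other cell types with values were named after their values were seen. Replicate numbers are shared by the groups, but no label pairs the samples.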

Additional observations from a re-analysis of the deposited data

How the results depend on the processing

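All 5 members kept their direction under every alternative run: pseudocounts of 0.5 and 10, unscaled reads, the replicate number as a block, and each sample left out in turn. Most of these runs could not have changed a direction. For the 4 members whose groups did not overlap, no pseudocount or left-out sample can reverse it. Each replicate number occurs once per group, so the block leaves the difference as it was. The members were also selected on this difference. With one sample left out, the difference of mean log2(value + 1) ranged from -1.14 to -0.92 for Cx3cr1, -2.09 to -1.71 for Rps27rt, 0.92 to 1.39 for Xirp1, -3.29 to -1.04 for Myrip and -3.57 to -1.18 for Trank1. With a pseudocount of 10 it was -1.07 for Myrip and -1.32 for Trank1, since that value is large beside their reads. The count of listed genes called by limma was 0 with all samples, 120 with a pseudocount of 0.5, and 1 (Rps27rt) among the 236 genes with a mean of at least 10. DESeq2 called 48. With one sample left out the count ranged from 0 to 196. The cause of these changes was not tested, and the smallest limma adjusted p with all samples, 0.0533, lies just above the threshold. All of these counts come from genes selected on the same contrast, so the adjusted p are not error rates. With the replicate number as a block the count was 4 (Cx3cr1, Loxl1, Fosb and Hba-a1), but deviations of same-numbered samples had correlations of -0.04, -0.04 and 0.07, so the samples share only a number. A window of 5 Mb on each side of the Cx3cr1 start held 4 listed genes against a median of 3 around the other listed genes, 172 of which had at least 4. A window of 20 Mb on each side of the Cx3cr1 start held 8 listed genes, as a wider window must hold at least as many. The median around the other listed genes was also 8. None of these windows was corrected for the ends of chromosomes. Of the 5 genes most like Cx3cr1, 3 were among the 6 highest by Spearman correlation, where ties at 0.94 do not allow a set of 5.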
